A study of Homo sapiens with 4 samples.

Results

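The miRNAs of exosomes released by HCT29 spheres were compared with those released by HCT15 spheres, line against line, with 1 small RNA library on each side. Of 2588 mature miRNAs listed in both libraries, the 325 with at least 10 reads in either library were kept. Of these, 171 had at least 10 reads in both libraries, 42 in HCT29 only and 112 in HCT15 only. The filter left out 1786 miRNAs with no read in either library and 477 whose higher count was 1 to 9. At its edge, 9 miRNAs had exactly 10 reads in the higher library and were kept, and 13 had exactly 9 and were not.

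The series profiled exosomes, small vesicles shed by cells that carry RNA and protein, from parental cultures and from spheres of human colon cancer lines, and names as its purpose the search for miRNAs that matter for malignant cancer stem cells. HCT29 spheres and HCT15 spheres were both grown for 3 weeks in DMEM/F12 with N2 supplement, 10 ng/ml bFGF and 10 ng/ml EGF, a serum-free medium that lets clumps of cells grow in suspension. HCT29 parental cells and HCT15 parental cells were both kept in complete RPMI, and their exosomes came from an exosome-depleted form of that medium. All 4 libraries came from conditioned medium by differential ultracentrifugation, and each group is 1 library of 1 established line, so nothing separates a line from its library. HCT15 is a colorectal adenocarcinoma line. The growth text of the samples labelled HCT29 names HCT15 in its place, so the name HCT29 is used here as the titles give it.

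Values are reads per 1000000 sequenced (RPM), and whole reads could be recovered from them. The sphere libraries implied 530920 reads for HCT29 and 461226 for HCT15, of which 86.8% and 89.9% fell on listed miRNAs. A single read was worth 1.88 RPM in HCT29 spheres and 2.17 RPM in HCT15 spheres. Folds against 0 reads were set at a floor of 3 reads, 5.65 and 6.50 RPM. The exact 95% upper limits of 0 reads were 6.95 and 8.0 RPM, so those folds are approximate bounds. Parental libraries were shallower, with 110666 reads for HCT29 and 146648 for HCT15. The 7 colon epithelium markers looked at all had reads in both sphere libraries and summed to 131432 RPM in HCT29 and 21566 RPM in HCT15. Most of the HCT29 sum came from miR-192-5p and miR-375. The 7 did not all go the same way, since miR-141-3p was lower in HCT29 and miR-200c-3p lay within 2-fold. The 3 muscle markers and the liver marker used for cell type had no read in either, and of the 7 blood markers miR-451a, miR-144-3p and miR-223-3p had none, the other 4 summing to 360 RPM in HCT29 and 152 RPM in HCT15. No test is possible between single libraries, so ratios carry exact conditional binomial 95% intervals that cover counting error alone, and a size rule of 2-fold on RPM + 1 stands in for a call.

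A miRNA pairs with messenger RNAs mainly through its seed, bases 2 to 8 from its 5′ end, and miRNAs that share a seed can recognise the same sites even when they are made from different places in the genome. Hairpins that lie close together are often cut from 1 long transcript, and each hairpin can give a mature miRNA from its 5′ arm, its 3′ arm or both. Colon epithelium is known for miR-192, miR-194, miR-215, the miR-200 family and miR-375, while the clusters on chromosome 19 that hold miR-371 to miR-373 and the placental miRNAs are mostly silent outside embryonic cells, germ cell tumours and placenta.

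Mature sequences from RefSeq (GRCh38.p14) were matched for 284 of the 325 miRNAs, 1 of them under another name. The sequences that the comparison turns on follow, 5′ to 3′, with the seed in capitals. The first set holds pairs that share a seed but stood on opposite sides of the line comparison.
miR-99b-5p: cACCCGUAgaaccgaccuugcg
miR-100-5p: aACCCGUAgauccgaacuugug
miR-27b-3p: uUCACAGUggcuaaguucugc
miR-27a-3p: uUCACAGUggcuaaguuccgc
miR-23b-3p: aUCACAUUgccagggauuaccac
miR-23a-3p: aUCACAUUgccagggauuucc
miR-181b-5p: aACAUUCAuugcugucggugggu
miR-181d-5p: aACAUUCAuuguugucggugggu
miR-25-3p: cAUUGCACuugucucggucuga
miR-92b-3p: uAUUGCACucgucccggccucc
The second set holds miRNAs with the highest ratios toward HCT29, among them the gut pair miR-192 and miR-215 with 1 seed.
miR-192-5p: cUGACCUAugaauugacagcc
miR-215-5p: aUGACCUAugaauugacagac
miR-375: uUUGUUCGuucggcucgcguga
miR-577: uAGAUAAAauauugguaccug
miR-1910-5p: cCAGUCCUgugccugccgccu
The third set holds miRNAs that were far lower in HCT29 spheres or had no read there, among them miR-372-3p and miR-373-3p with 1 seed.
miR-371a-5p: aCUCAAACugugggggcacu
miR-372-3p: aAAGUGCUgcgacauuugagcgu
miR-373-3p: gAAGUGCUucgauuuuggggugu
miR-146a-5p: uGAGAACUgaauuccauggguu
miR-449b-5p: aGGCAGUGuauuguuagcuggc

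Far more miRNAs were lower than higher in HCT29 sphere exosomes. By the 2-fold rule 82 of 325 were higher (25.2%), 182 were lower (56.0%) and 61 lay within 2-fold, with a median log2 ratio of -1.47. The interval excluded 1 for 76 of the higher and 181 of the lower miRNAs. At 4-fold the counts were 45 higher and 146 lower, and at 16-fold 18 higher and 89 lower. Of the lower side, 67 miRNAs had no read in HCT29 spheres, while 14 had none in HCT15 spheres. Among the 171 with at least 10 reads in both libraries, 43 were higher and 74 lower, with a median of -0.54, so much of the excess of lower miRNAs came from those seen mainly in HCT15.

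The choice of scale moves these counts. RPM is a share of a library, so less of a miRNA per vesicle or per cell, fewer vesicles or cells that carry it, and more of everything else cannot be told apart. TMM scaling raised the log2 ratios by a median of 0.78 and gave 103 higher and 153 lower, so that higher miRNAs made up 40.2% of those called, against 31.1% by RPM. With DESeq2 size factors the shift was 0.49, with 96 higher and 160 lower (37.5% higher). Leaving miR-10a-5p out of the totals moved the ratios by -0.51, with 58 higher and 199 lower (22.6% higher). Where a family below changes direction between these scales, that is said beside it.

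**Figure D1:**
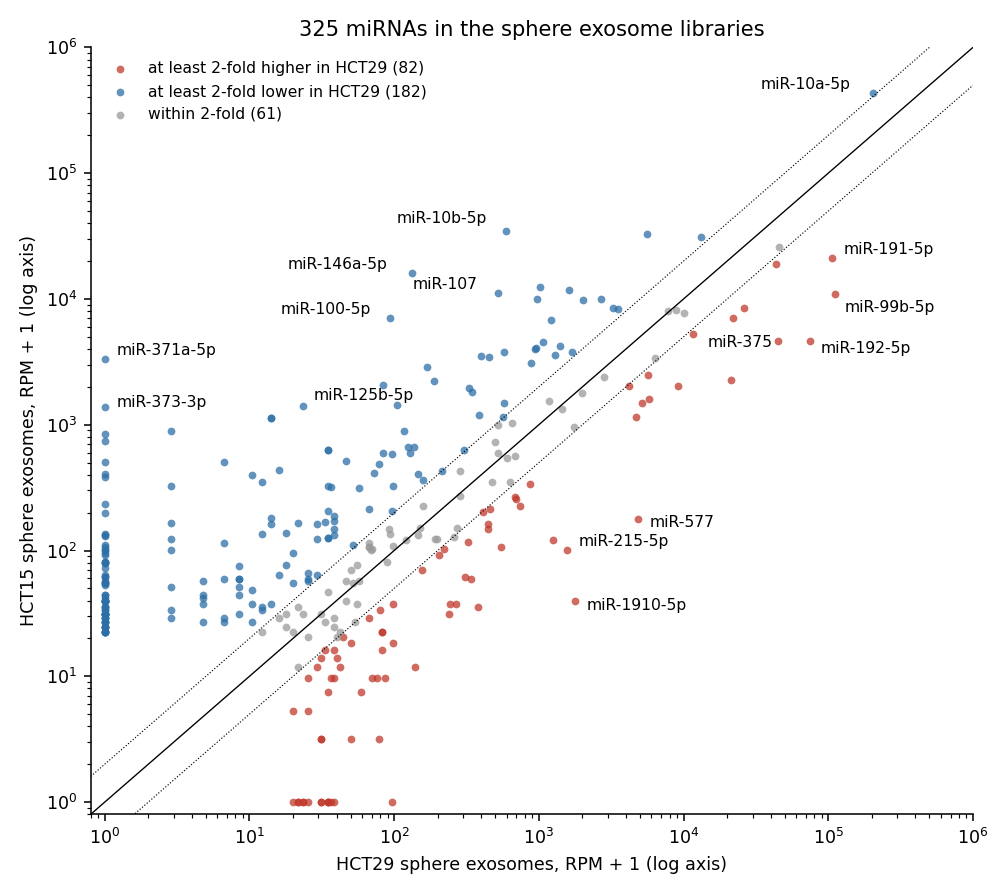
Level of each of the 325 miRNAs in HCT29 sphere exosomes (x axis) and HCT15 sphere exosomes (y axis), as RPM + 1 on log axes, with 1 point per miRNA and 1 library per axis. The solid line marks equal levels and the dotted lines 2-fold, and the column of points at the left edge holds the 67 miRNAs with no read in HCT29 spheres, against 14 along the bottom edge with none in HCT15 spheres.

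The most abundant miRNAs gave the libraries different make-ups. miR-10a-5p, which lies in the HOXB cluster (chr17:48579838-48579947, minus strand, within HOXB3 and HOXB4), led both, with 203614 RPM in HCT29 spheres against 431335 RPM in HCT15 spheres, 2.12-fold lower in HCT29 (interval 2.10 to 2.13). It held 23.5% of listed reads in HCT29 and 48.0% in HCT15 (exact intervals 23.3 to 23.6 and 47.9 to 48.2). HCT29 spheres continued with miR-99b-5p at 12.7%, miR-191-5p at 12.2% and miR-192-5p at 8.67% of listed reads. HCT15 spheres continued with miR-10b-5p at 3.86%, miR-22-3p at 3.67% and miR-21-5p at 3.49%. The second rank thus held 12.7% in HCT29 spheres and 3.86% in HCT15 spheres.

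miR-191-5p had 106025 RPM in HCT29 spheres and 21339 RPM in HCT15 spheres, 4.97-fold higher in HCT29 (4.86 to 5.08). miR-10b-5p, the HOXD cluster relative of miR-10a, had 590 RPM in HCT29 spheres against 34703 RPM in HCT15 spheres, 58.9-fold lower (52.6 to 66.0). The miR-10 pair therefore stood at very different ratios although both members were lower in HCT29. miR-22-3p had 5575 RPM in HCT29 and 32958 RPM in HCT15, 5.91-fold lower (5.68 to 6.15). miR-21-5p, a miRNA raised in many carcinomas, had 13124 RPM in HCT29 and 31319 RPM in HCT15, 2.39-fold lower (2.32 to 2.46), and inside 2-fold by TMM scaling.

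Intestinal miRNAs were the clearest group on the higher side. All 3 measured members of the miR-192, miR-194 and miR-215 list were higher in HCT29 spheres, with a median log2 ratio of 3.95 against -1.47 over all 325, and the list summed to 78078 RPM in HCT29 and 4837 RPM in HCT15, 16.1-fold higher (15.5 to 16.9). miR-192-5p, an epithelial miRNA that p53 can induce, had 75266 RPM in HCT29 spheres and 4612 RPM in HCT15 spheres, 16.3-fold higher (15.6 to 17.1). miR-215-5p, with the same seed, had 1558 RPM in HCT29 and 99.7 RPM in HCT15, 15.6-fold higher (11.6 to 21.5). miR-194-5p had 1247 RPM in HCT29 and 119 RPM in HCT15, 10.5-fold higher (7.93 to 14).

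These 3 come from a pair of loci that each hold a miR-194 hairpin. miR-192 lies at chr11:64891137-64891246 (minus strand) in an exon of the noncoding host MIR194-2HG, beside the hairpin MIR194-2. miR-215 lies at chr1:220117853-220117962 (minus strand), beside MIR194-1, with no annotated gene around it on that strand. The mature miR-192-5p and miR-215-5p differ at 2 of 21 positions, and how the counting treated reads that match such close mates, here or in the pairs that follow, is not given in the sources used here.

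Other miRNAs at the top of the HCT29 side came from scattered loci. miR-1910-5p, from an intron of C16orf74 (chr16:85741621-85741700, minus strand), had 1767 RPM in HCT29 spheres and 39.0 RPM in HCT15 spheres, 45.3-fold higher (28.5 to 76.7). miR-577, from an intron of UGT8 (chr4:114656759-114656854, plus strand), had 4826 RPM in HCT29 and 176 RPM in HCT15, 27.5-fold higher (22.0 to 34.7). miR-584-5p, from an intron of SH3TC2, had 379 RPM in HCT29 and 34.7 RPM in HCT15, 10.9-fold higher (6.56 to 19.5). For these introns the host genes themselves were not measured, since the libraries hold small RNA only.

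miR-375, known from pancreatic islets and secretory cells of the gut, had 45016 RPM in HCT29 spheres and 4599 RPM in HCT15 spheres, 9.79-fold higher (9.36 to 10.2). miR-151a-3p had 21321 RPM in HCT29 and 2274 RPM in HCT15, 9.37-fold higher (8.80 to 10.0). Both HOX cluster miRNAs of the miR-196 seed were higher too. miR-196b-5p had 337 RPM in HCT29 and 58.5 RPM in HCT15, 5.76-fold higher (3.83 to 8.98), and miR-196a-5p had 307 RPM in HCT29 and 60.7 RPM in HCT15, 5.06-fold higher (3.37 to 7.85). The HOX list as a whole therefore split, with 3 of 6 measured members higher and 3 lower, miR-10a-5p and miR-10b-5p among the lower, and miR-10a-5p inside 2-fold by TMM scaling.

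The miR-200 family, which holds back the epithelial to mesenchymal transition by targeting ZEB1 and ZEB2, divided by seed. Its first seed group (miR-200b, miR-200c and miR-429) summed to 6084 RPM in HCT29 spheres and 2298 RPM in HCT15 spheres, 2.65-fold higher (2.47 to 2.84). Its second seed group (miR-141 and miR-200a), which differs from the first by 1 seed base, summed to 3240 RPM in HCT29 and 11188 RPM in HCT15, 3.45-fold lower (3.27 to 3.65). These sums kept their directions under all 4 scales. Over the family 4 of 8 measured members were higher and 3 lower, and the sum of the 9 listed members was 1.43-fold lower (1.38 to 1.48), a direction that TMM scaling turned round (log2 0.29).

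Within the family, miR-200b-3p had 5151 RPM in HCT29 spheres and 1500 RPM in HCT15 spheres, 3.43-fold higher (3.16 to 3.74). miR-200c-3p had 520 RPM in HCT29 and 596 RPM in HCT15, 1.15-fold lower with an interval that includes 1 (0.967 to 1.36), and turned higher by TMM scaling (log2 0.61). miR-141-3p had 2675 RPM in HCT29 and 10041 RPM in HCT15, 3.75-fold lower (3.54 to 3.99). miR-200c and miR-141 lie next to each other in the noncoding host MIR200CHG on chromosome 12, with no member on the higher side there.

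Of 222 distinct seeds, 38 were shared by more than 1 miRNA (100 miRNAs in all), and in 6 of those 38 some members were at least 2-fold higher and others at least 2-fold lower in HCT29. In the best counted of these, the seed group of miR-99 and miR-100, miR-99b-5p had 110431 RPM in HCT29 spheres and 10878 RPM in HCT15 spheres, 10.2-fold higher (9.86 to 10.5). miR-100-5p, its mate, had 92.3 RPM in HCT29 and 7111 RPM in HCT15, 77.1-fold lower (58.1 to 104). The sequences printed above differ at 4 of 22 positions, all outside the seed. Added up, the seed amounted to 110523 RPM in HCT29 and 17989 RPM in HCT15, 6.14-fold higher (6.00 to 6.29), so that miR-99b supplied nearly all of it in HCT29 while both members supplied it in HCT15.

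The mates come from different loci. miR-99b lies at chr19:51692612-51692681 (plus strand) in an intron of SPACA6, in a cluster with let-7e and miR-125a. miR-100 lies at chr11:122152229-122152308 (minus strand) in an intron of the noncoding host MIR100HG, which also holds miR-125b. miR-125b-5p went the way of its neighbour, with 22.6 RPM in HCT29 spheres and 1420 RPM in HCT15 spheres, 62.8-fold lower (35.7 to 122). miR-125a-5p, with the seed of miR-125b but the locus of miR-99b, had 10052 RPM in HCT29 and 7781 RPM in HCT15, 1.29-fold higher (1.24 to 1.35) and within the 2-fold rule, lower without miR-10a-5p in the totals (log2 -0.14). The miR-125 seed as a whole came to 10075 RPM in HCT29 and 9202 RPM in HCT15, 1.09-fold higher (1.05 to 1.14), a direction that turned round without miR-10a-5p in the totals (log2 -0.38).

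The 23-27-24 clusters gave the same picture with closer mates. miR-27b-3p, from an intron of C9orf3 on chromosome 9, had 26143 RPM in HCT29 spheres and 8425 RPM in HCT15 spheres, 3.10-fold higher (2.99 to 3.22). miR-27a-3p, from chromosome 19, had 1023 RPM in HCT29 and 12393 RPM in HCT15, 12.1-fold lower (11.1 to 13.3). Their summed seed nearly balanced, at 27166 RPM in HCT29 and 20818 RPM in HCT15, 1.30-fold higher (1.27 to 1.34), and the sum turned round without miR-10a-5p in the totals (log2 -0.12).

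The neighbouring hairpins did the same. miR-23b-3p had 456 RPM in HCT29 spheres and 212 RPM in HCT15 spheres, 2.15-fold higher (1.69 to 2.74), a difference that fell inside 2-fold without miR-10a-5p in the totals. miR-23a-3p had 396 RPM in HCT29 and 3510 RPM in HCT15, 8.87-fold lower (7.68 to 10.3). The mates miR-27b-3p and miR-27a-3p differ at 1 of 21 positions, and so do miR-23b-3p and miR-23a-3p over the 21 aligned from the 5′ end. miR-24-3p, which both clusters encode in the same mature form, had 571 RPM in HCT29 and 3796 RPM in HCT15, 6.65-fold lower (5.89 to 7.54).

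The 4 members of the miR-181 seed divided into a pair of pairs. miR-181a-5p had 22030 RPM in HCT29 spheres and 7025 RPM in HCT15 spheres, 3.14-fold higher (3.02 to 3.26), and miR-181b-5p had 4665 RPM in HCT29 and 1143 RPM in HCT15, 4.08-fold higher (3.72 to 4.49). miR-181c-5p and miR-181d-5p, which share an intron of NANOS3 on chromosome 19, went the other way. miR-181c-5p had 45.2 RPM in HCT29 and 510 RPM in HCT15, 11.3-fold lower (7.39 to 17.9), and miR-181d-5p had 11.3 RPM in HCT29 and 134 RPM in HCT15, 11.9-fold lower (5.17 to 33.7). miR-181b-5p and miR-181d-5p differ at 1 of 23 positions. The seed summed to 26752 RPM in HCT29 and 8811 RPM in HCT15, 3.04-fold higher (2.93 to 3.14) and higher under all 4 scales.

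In the seed of miR-25 and miR-92, miR-25-3p had 5683 RPM in HCT29 spheres and 2467 RPM in HCT15 spheres, 2.30-fold higher (2.15 to 2.47), inside 2-fold without miR-10a-5p in the totals. miR-92b-3p had 2025 RPM in HCT29 and 9848 RPM in HCT15, 4.86-fold lower (4.55 to 5.20). The most abundant member, miR-92a-3p, had 45653 RPM in HCT29 and 25740 RPM in HCT15, 1.77-fold higher (1.74 to 1.81) and short of the rule. Of the 9 let-7 miRNAs, tumour suppressors that restrain RAS and LIN28 targets, 1 was higher, 4 were lower and 4 lay within 2-fold. let-7f-5p had 11548 RPM in HCT29 and 5245 RPM in HCT15, 2.20-fold higher (2.10 to 2.31) and inside 2-fold without miR-10a-5p in the totals, and let-7b-5p had 1074 RPM in HCT29 and 4555 RPM in HCT15, 4.24-fold lower (3.87 to 4.66). The let-7 seed summed to 26454 RPM in HCT29 and 27616 RPM in HCT15, 1.04-fold lower (1.02 to 1.07), and turned higher by TMM scaling (log2 0.75) and by DESeq2 size factors (log2 0.44).

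**Figure D2:**
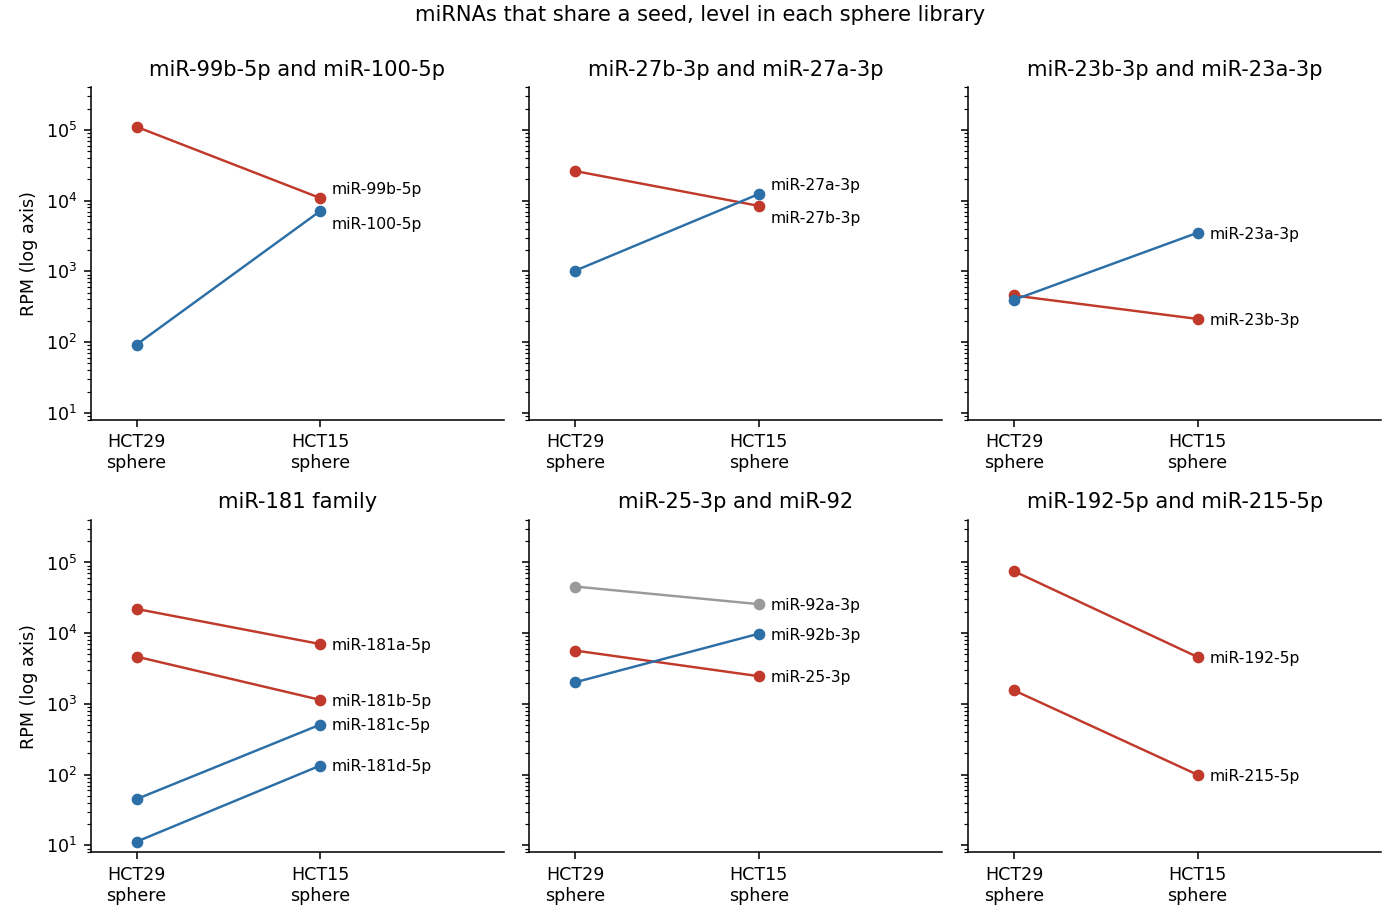
Level in RPM (log axis) of miRNAs that share a seed, HCT29 spheres on the left and HCT15 spheres on the right of each panel, with a line for each miRNA and 1 library per point. Red lines were at least 2-fold higher in HCT29, blue lines at least 2-fold lower and grey lines within 2-fold, and lines of both colours cross or part in 5 panels, while miR-192-5p and miR-215-5p, in the last, ran in parallel at 16.3-fold and 15.6-fold higher.

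Genome neighbours were read the same way. Hairpins within 10 kb of each other on a strand formed 28 groups with 93 mature miRNAs. In 15 groups every measured miRNA was at least 2-fold lower in HCT29, many of those miRNAs having passed the filter through HCT15 alone, in 2 every one was at least 2-fold higher (miR-200b with miR-429, and miR-23b with miR-27b), in 7 some or all lay within 2-fold with none opposite, and in 4 members went both ways. Among the 38 shared seeds, 16 were wholly lower, 5 wholly higher and 6 went both ways, and the shares of the 2 groupings were not compared by a test. Singly, 56.0% of the 325 miRNAs were lower and 25.2% higher. The miR-550a seed (higher) and that of miR-199a-3p and miR-199b-3p (lower) hold entries with identical values, which cannot part. Some wholly lower seeds had no read in HCT29 spheres, so the filter fixed their direction. Both wholly higher groups leave out a lower member, since only miRNAs with 1 annotated hairpin position in the table were placed: miR-200a-3p, of the miR-200b locus, had no position there, and miR-24-3p, shared by the miR-23b and miR-23a loci, has more than 1. The 4 groups that went both ways were miR-99b with let-7e and miR-125a, miR-25 with miR-106b, miR-182 with miR-96, and let-7f-1 with let-7d. Beside miR-99b the lower members were minor arms, let-7e-3p (6 reads in HCT29 spheres, 15 in HCT15 spheres) and miR-125a-3p (15 and 29). The major arms let-7e-5p and miR-125a-5p lay within 2-fold. In the let-7 group the members that parted were 3p arms, let-7f-1-3p lower and let-7d-3p higher. In the miR-25 group 3 of 4 members were higher, among them miR-25-3p at 2.30-fold and miR-106b-3p (log2 1.71). The lower member was miR-106b-5p, with 65.9 RPM in HCT29 spheres and 212 RPM in HCT15 spheres, 3.22-fold lower (2.17 to 4.89). Since miR-106b-3p was the major arm of its hairpin in both sphere libraries, this group parted between the arms of miR-106b and not between the hairpins. The abundant miR-182-5p had 43534 RPM in HCT29 and 18800 RPM in HCT15, 2.32-fold higher (2.26 to 2.37), while its neighbour miR-96-5p had 37.7 RPM in HCT29 and 189 RPM in HCT15, 5.01-fold lower (3.05 to 8.60).

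**Figure D3:**
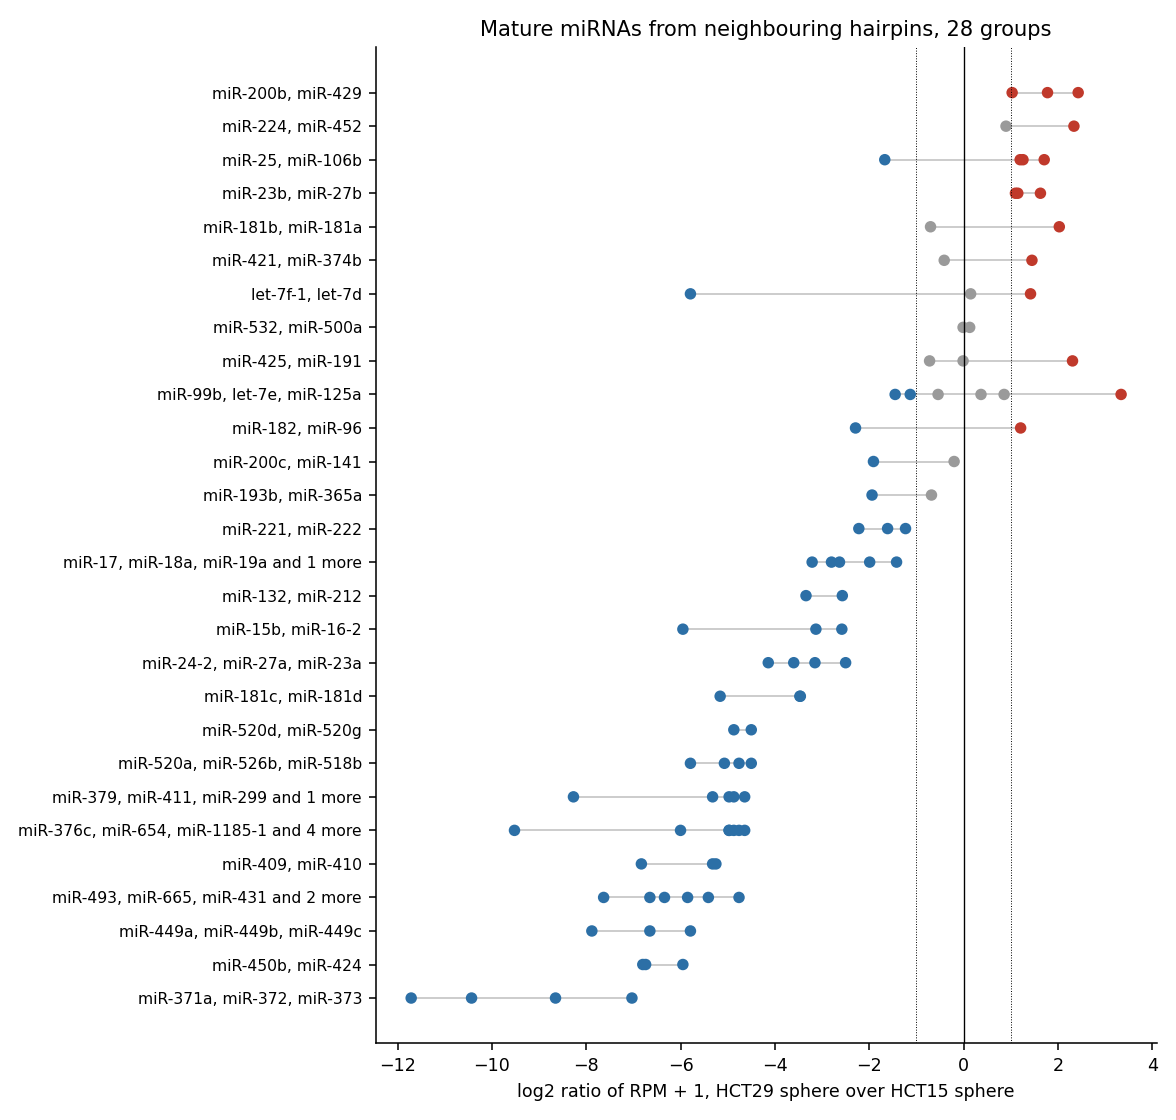
The log2 ratio of RPM + 1 (HCT29 sphere over HCT15 sphere, x axis) of each mature miRNA in the 28 groups of neighbouring hairpins (y axis, ordered by median), with 1 point per miRNA. Red points are at least 2-fold higher in HCT29, blue points at least 2-fold lower and grey points within 2-fold (dotted lines), and 15 groups lie wholly on the lower side against 2 on the higher side.

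Of the miRNAs of pluripotent cells, those of the miR-371 to miR-373 locus were present in HCT15 spheres and without a read in HCT29 spheres. Over all 2588 listed miRNAs, 423 had a read in HCT29 spheres and 712 in HCT15 spheres. Of 14 on this list, 0 had a read in HCT29 spheres and 6 in HCT15 spheres. The filter kept 4, all through HCT15 alone: miR-371a-5p, miR-371a-3p, miR-372-3p and miR-373-3p. The rest of the list had fewer than 10 reads in both libraries. The list summed to 0 RPM in HCT29 and 5251 RPM in HCT15, at least 929-fold lower. miR-371a-5p had 0 RPM in HCT29 spheres and 3341 RPM in HCT15 spheres, at least 591-fold lower. miR-373-3p had 0 RPM in HCT29 and 1375 RPM in HCT15, at least 243-fold lower, and miR-372-3p had 0 RPM in HCT29 and 401 RPM in HCT15, at least 71.0-fold lower. These hairpins lie side by side on chromosome 19 (chr19:53787675-53788773, plus strand), with no annotated host gene on that strand.

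The larger chromosome 19 cluster, a primate array that placenta expresses, was seen at lower levels and in HCT15 spheres only. Of 45 listed miRNAs, 0 had a read in HCT29 spheres and 38 in HCT15 spheres, against 423 and 712 of all 2588. The 15 that passed the filter did so through HCT15 alone, which fixes their direction, so their count is no support for it. The sum over the 45 was 0 RPM in HCT29 spheres and 1342 RPM in HCT15 spheres, at least 238-fold lower. miR-512-3p led with 0 RPM in HCT29 and 505 RPM in HCT15, at least 89.4-fold lower, and miR-516b-5p had 0 RPM in HCT29 and 134 RPM in HCT15, at least 23.8-fold lower. miR-520a-3p has the seed of miR-372-3p and miR-373-3p, and that seed summed to 0 RPM in HCT29 and 1830 RPM in HCT15, at least 324-fold lower. In parental exosomes the larger cluster had 2 reads in HCT29 and 7 in HCT15, too few to compare.

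The imprinted DLK1-DIO3 cluster on chromosome 14, whose miRNAs come from the maternal chromosome, was also read mainly in HCT15 spheres. Of 70 listed miRNAs, 8 had a read in HCT29 spheres and 63 in HCT15 spheres, against 423 and 712 of all 2588. The filter kept 25, of which 24 passed through HCT15 alone and were bound to be lower. With miR-345 included, the list summed to 235 RPM in HCT29 spheres and 5028 RPM in HCT15 spheres, 21.4-fold lower (17.8 to 25.8). Most of the HCT29 level was miR-345-5p, with 215 RPM in HCT29 and 431 RPM in HCT15, 2.01-fold lower (1.59 to 2.55), inside 2-fold by TMM scaling and DESeq2 size factors. Its hairpin (chr14:100307859-100307956, plus strand) lies apart from the others on the list, and without miR-345, a choice made after seeing the data, the list summed to 20.7 RPM in HCT29 and 4597 RPM in HCT15, 222-fold lower (124 to 445). miR-381-3p had 0 RPM in HCT29 and 846 RPM in HCT15, at least 150-fold lower, and miR-654-3p had 0 RPM in HCT29 and 735 RPM in HCT15, at least 130-fold lower. miR-411-5p had 1 read (1.88 RPM) in HCT29 and 891 RPM in HCT15, 473-fold lower with a wide interval (84.4 to 18732).

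Mesenchymal markers were lower in sum. Of 10 listed, 3 had a read in HCT29 spheres and 10 in HCT15 spheres, against 423 and 712 of all 2588 miRNAs. Of the 7 that passed the filter, 6 did so through HCT15 alone. The list summed to 194 RPM in HCT29 spheres and 5711 RPM in HCT15 spheres, 29.4-fold lower (24.2 to 36.2). In parental exosomes it summed to 1744 RPM in HCT29 and 1296 RPM in HCT15, 1.35-fold higher (1.1 to 1.65). miR-143-3p, a smooth muscle and fibroblast miRNA, had 168 RPM in HCT29 and 2886 RPM in HCT15, 17.2-fold lower (13.9 to 21.6). miR-199a-5p had 0 RPM in HCT29 and 382 RPM in HCT15, at least 67.5-fold lower. miR-199a-3p and miR-199b-3p, listed with identical values, had 13.2 RPM in HCT29 and 1123 RPM in HCT15, 85.2-fold lower (41.0 to 213). Of the 5 fibroblast and smooth muscle markers used for cell type, miR-145-5p, miR-199a-5p and miR-214-3p had no read in HCT29 spheres and none was at 0 in HCT15 spheres, with sums of 181 RPM in HCT29 and 4479 RPM in HCT15. Their part in the other results was not tested.

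Inflammation-linked miRNAs were lower as well. miR-146a-5p, which NF-kB induces and which damps that pathway through TRAF6 and IRAK1, had 132 RPM in HCT29 spheres and 16215 RPM in HCT15 spheres, 123-fold lower (97.2 to 158). miR-146b-5p, with the same seed from chromosome 10, had 345 RPM in HCT29 and 1819 RPM in HCT15, 5.28-fold lower (4.49 to 6.23). miR-155-5p had 33.9 RPM in HCT29 and 629 RPM in HCT15, 18.5-fold lower (11.5 to 31.7). All 3 measured members of that list were therefore lower, and its sum was 36.6-fold lower (32.4 to 41.4).

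In several families the measured members were lower without exception, which is read against the 56.0% lower among all 325. All 5 measured members of the miR-34 and miR-449 family, of which miR-34 is a p53 target and miR-449 belongs to multiciliated cells, were lower, 4 of them having passed the filter through HCT15 alone, and miR-449b-5p had 0 RPM in HCT29 spheres and 234 RPM in HCT15 spheres, at least 41.4-fold lower. All 5 of the miR-148 and miR-152 family were lower by RPM, 3 of them still so by TMM scaling, and 2 had passed the filter through HCT15 alone. In that family miR-148a-3p had 974 RPM in HCT29 and 10034 RPM in HCT15, 10.3-fold lower (9.41 to 11.3). All 7 measured members of the miR-15, miR-16 and miR-424 family, regulators of BCL2 and cyclins, were lower under every scale, 4 of them having passed through HCT15 alone, with miR-16-5p at 1211 RPM in HCT29 and 6752 RPM in HCT15, 5.57-fold lower (5.12 to 6.08). The miR-29 family, which represses collagens, had 2 measured members, both lower, a number too small to set against the 56.0%. Of these, 1 had passed the filter through HCT15 alone. The other, miR-29a-3p, had 188 RPM in HCT29 and 2235 RPM in HCT15, 11.9-fold lower (9.66 to 14.7).

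The metabolic pair miR-103a and miR-107 was lower in HCT29 as well. miR-103a-3p had 1624 RPM in HCT29 spheres and 11834 RPM in HCT15 spheres, 7.29-fold lower (6.78 to 7.84), and miR-107 had 522 RPM in HCT29 and 11103 RPM in HCT15, 21.3-fold lower (18.9 to 24.1). They differ at 1 of 23 positions. In the miR-320 group, made without the Drosha cut that most miRNAs need, 5 of 6 measured members were lower and 1 lay within 2-fold. Through HCT15 alone, 1 of the 6 had passed the filter. In this group miR-320c had 33.9 RPM in HCT29 and 631 RPM in HCT15, 18.6-fold lower (11.6 to 31.8). The cell cycle pair miR-221 and miR-222, which represses the inhibitor p27, had all 4 measured arms lower by RPM and 2 of them by TMM scaling. Of the 4 arms, 1 had passed the filter through HCT15 alone.

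The parental libraries gave a second reading of the line difference from separate libraries. Of the 325 miRNAs, 208 had at least 10 reads in either parental library, and 51 of these (24.5%) were at least 2-fold higher and 88 (42.3%) at least 2-fold lower in HCT29 parental exosomes. Of the 50 sphere-higher miRNAs among them, 26 (52.0%) were also higher, 11 were lower and 13 lay within 2-fold. Of the 108 sphere-lower ones, 57 (52.8%) were also lower, 15 were higher and 36 lay within 2-fold. Both shares exceed the background share of their direction. Across the 208 miRNAs the log2 ratios of both pairs had a Pearson r of 0.54 and a Spearman rho of 0.44, given as a description, since miRNAs of 1 library are not independent. A further 32 sphere-higher and 74 sphere-lower miRNAs had too few parental reads to compare.

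Over all 4 libraries, limma with terms for line and culture tested 222 miRNAs on log2(RPM + 1), with 1 residual degree of freedom and Benjamini-Hochberg adjustment. It called 8 miRNAs higher (3.60%) and 20 lower (9.01%) in HCT29, and 52 had an unadjusted p under 0.05. All 8 were at least 2-fold higher in the sphere pair and all 20 at least 2-fold lower. The sphere pair is part of the fit, so this is no separate support. The test treats the sphere and parental libraries of a line as replicates of it. With a culture term in the fit, the residual is the change of a line difference between cultures. Spread between independent cultures is not measured. That 1 degree of freedom was moderated with a variance trend over all 222 miRNAs, so the p-values rest largely on spread shared across miRNAs. Where a library had 0 reads of a miRNA, the size of its line term depends on the 1 RPM added before logs.

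The 3 embryonic miRNAs miR-371a-5p, miR-372-3p and miR-373-3p passed limma and each of the 11 alternative fits. miR-371a-5p had 0 RPM in HCT29 parental exosomes and 5994 RPM in HCT15 parental exosomes beside the sphere values above, with a line term of -12.13 ± 1.31 (SE) and an adjusted p of 4.9e-15 by limma. miR-373-3p had 0 RPM in HCT29 parental and 2250 RPM in HCT15 parental exosomes, with a line term of -10.78 ± 1.43 and an adjusted p of 1.32e-10 by limma. miR-372-3p had 0 RPM in HCT29 parental and 1302 RPM in HCT15 parental exosomes, with a line term of -9.50 ± 1.60 and an adjusted p of 8.48e-07 by limma. All 3 had 0 reads in both HCT29 libraries. The sizes of their line terms therefore depend on the 1 RPM added before logs and do not estimate a fold. Their adjusted p reached at most 0.025 over the 11 alternatives, which are limma with other settings or libraries, edgeR and DESeq2.

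Among the higher miRNAs, miR-192-5p had 68268 RPM in HCT29 parental and 1125 RPM in HCT15 parental exosomes, with a line term of 4.98 ± 1.18 (SE), an adjusted p of 0.00138 by limma and calls in 8 of 11 alternatives (up to 0.108 in the others). miR-577 had 7627 RPM in HCT29 parental and 232 RPM in HCT15 parental exosomes, with a line term of 4.90 ± 1.32, an adjusted p of 0.00615 by limma and calls in 6 of 11 (up to 0.315). miR-99b-5p had 123082 RPM in HCT29 parental and 11136 RPM in HCT15 parental exosomes, with a line term of 3.40 ± 1.08, an adjusted p of 0.0205 by limma and calls in 5 of 11 (up to 0.112). miR-598-3p, with 77.2 RPM in HCT29 spheres and 1 read (2.17 RPM) in HCT15 spheres, 35.6-fold higher (6.04 to 1441), had 831 RPM in HCT29 parental and 0 RPM in HCT15 parental exosomes, and a limma line term of 7.16 ± 1.72 with an adjusted p of 0.00138 and calls in 7 of 11 (up to 0.47). miR-584-5p, miR-194-5p, miR-1910-5p and miR-215-5p made up the 8, with limma adjusted p between 0.00138 and 0.0272 and calls in 3 or 4 of 11.

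On the lower side, miR-146a-5p had 45.2 RPM in HCT29 parental and 184 RPM in HCT15 parental exosomes, with a line term of -4.47 ± 1.29 (SE), an adjusted p of 0.0108 by limma and calls in 3 of 11 alternatives (up to 0.701). miR-10b-5p had 4780 RPM in HCT29 parental and 28770 RPM in HCT15 parental exosomes, with a line term of -4.23 ± 1.23, an adjusted p of 0.0108 by limma and calls in 4 of 11 (up to 0.479). miR-100-5p had 127 RPM in HCT29 parental and 252 RPM in HCT15 parental exosomes, with a line term of -3.62 ± 1.29 and an adjusted p of 0.043 by limma that none of the 11 alternatives kept under 0.05 (0.0602 to 0.676). The DLK1-DIO3 cluster contributed miR-411-5p, miR-381-3p, miR-410-3p, miR-136-3p, miR-409-3p and miR-127-3p, with limma adjusted p between 0.000768 and 0.043 and calls in 1 to 4 of 11. Over the 70 miRNAs of that list, miR-345 included, the parental sums were 307 RPM in HCT29 and 2114 RPM in HCT15, 6.88-fold lower (4.82 to 10.1). Without miR-345 the parental sums were 172 RPM in HCT29 and 1432 RPM in HCT15, 8.34-fold lower (5.21 to 14.1).

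**Figure D4:**
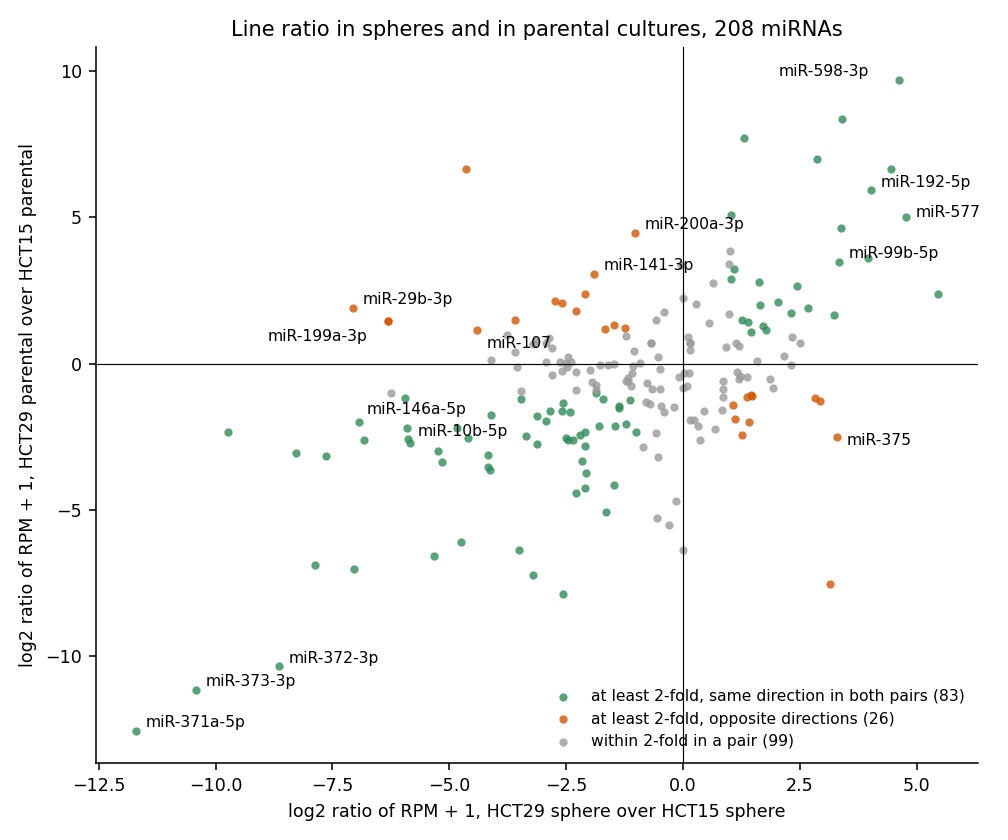
The log2 ratio of RPM + 1, HCT29 over HCT15, in sphere exosomes (x axis) and in parental exosomes (y axis) for the 208 miRNAs measured in both pairs, with 1 point per miRNA and 1 library per line and culture. Green points (83) passed 2-fold in the same direction in both pairs and orange points (26) in opposite directions, with miR-371a-5p, miR-372-3p and miR-373-3p at the lower left and miR-375, 9.79-fold higher in HCT29 spheres and 5.75-fold lower in HCT29 parental exosomes, at the right.

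Some line differences stood the other way round in the parental pair. miR-375, 9.79-fold higher in HCT29 spheres, had 994 RPM in HCT29 parental and 5714 RPM in HCT15 parental exosomes, 5.75-fold lower (4.71 to 7.08). miR-200a-3p, with 565 RPM in HCT29 spheres and 1147 RPM in HCT15 spheres, had 6732 RPM in HCT29 parental and 300.04 RPM in HCT15 parental exosomes, 22.4-fold higher there (16.5 to 31.1). Its sphere ratio (log2 -1.02) fell inside 2-fold by TMM scaling and DESeq2 size factors. miR-141-3p had 8449 RPM in HCT29 parental and 996 RPM in HCT15 parental exosomes, 8.49-fold higher (7.12 to 10.2), against 3.75-fold lower in spheres. The seed of miR-141 and miR-200a therefore summed to 3.45-fold lower in HCT29 spheres and 11.7-fold higher in HCT29 parental exosomes (10.1 to 13.7).

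The same held for miR-27a-3p, miR-107, miR-29b-3p and the miR-199 entries. miR-27a-3p had 1708 RPM in HCT29 parental and 607 RPM in HCT15 parental exosomes, 2.81-fold higher (2.18 to 3.66), so the miR-27 mates parted in the sphere pair and not in the parental pair, where miR-27b-3p was 6.85-fold higher (6.20 to 7.60). miR-107 had 1184 RPM in HCT29 parental and 532 RPM in HCT15 parental exosomes, 2.23-fold higher (1.67 to 2.98). miR-199a-3p and miR-199b-3p had 262 RPM in HCT29 parental and 95.5 RPM in HCT15 parental exosomes, 2.74-fold higher (1.40 to 5.62). The miR-99b and miR-100 split, in contrast, kept its directions, at 11.1-fold higher (10.5 to 11.6) and 1.99-fold lower (1.05 to 3.99) in HCT29 parental exosomes. In all, 21 miRNAs of at least 100 RPM in either sphere library were at least 2-fold apart in opposite directions by RPM. That count was not repeated under the other scales. With 1 library per group the difference between the pairs was not tested.

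The arm used by a hairpin needs no scaling between libraries, since it is a ratio within each. In 98 hairpins with at least 20 reads over both arms in each sphere library, 90 had the same major arm in HCT29 and HCT15 spheres, the 5p share differed by a median of 1.15 percentage points, and 68 differed by under 5 points. In 14 the shares were 10 points or more apart. The best counted were miR-151a and miR-423. miR-151a gave 23.0% of its reads from the 5p arm in HCT29 spheres and 59.9% in HCT15 spheres, from 3390 5p and 11320 3p reads in HCT29 against 1565 and 1049 in HCT15. miR-423 gave 74.9% in HCT29 spheres and 37.1% in HCT15 spheres.

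miR-1307, from an exon of ATP5MD on chromosome 10, gave 9.45% from its 5p arm in HCT29 spheres and 60.8% in HCT15 spheres (exact intervals 6.78 to 12.7 and 55.1 to 66.2). The arms of that hairpin accordingly went opposite ways between the lines. miR-1307-3p had 686 RPM in HCT29 and 265 RPM in HCT15, 2.59-fold higher (2.11 to 3.21), and miR-1307-5p had 71.6 RPM in HCT29 and 410 RPM in HCT15, 5.73-fold lower (4.02 to 8.34). In parental exosomes the 5p share of miR-1307 was 21.0% in HCT29 and 15.9% in HCT15, so HCT15 spheres stood apart from the other 3 libraries. miR-106b gave 8.20% from its 5p arm in HCT29 spheres and 48.5% in HCT15 spheres, against 29.9% in HCT29 parental and 31.5% in HCT15 parental exosomes.

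**Figure D5:**
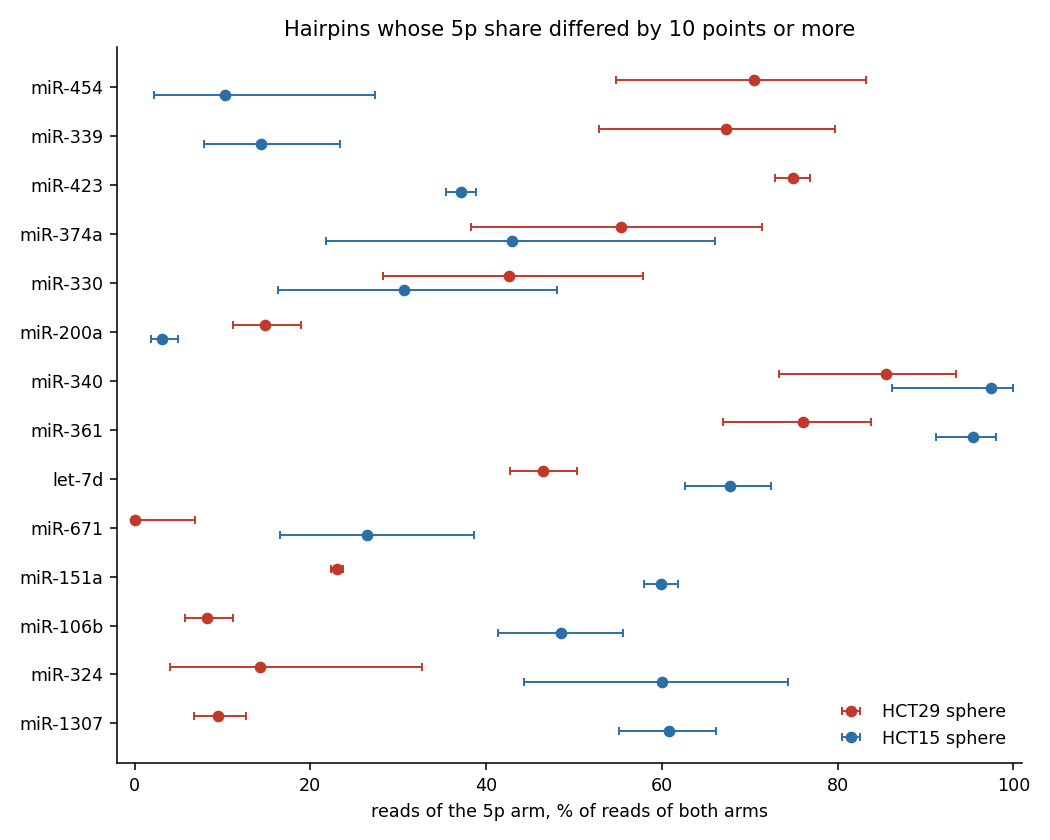
Share of reads from the 5p arm, in percent of the reads of both arms (x axis), for the 14 hairpins (y axis) whose share differed by 10 points or more, with HCT29 spheres in red above HCT15 spheres in blue. Bars are exact 95% intervals of counting error with 1 library per group, and the intervals of miR-151a (23.0% in HCT29, 59.9% in HCT15) and miR-423 (74.9% and 37.1%) are narrow and far apart, while those of miR-374a, miR-330 and miR-340 overlap.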

How the data were processed

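Exosome RNA went into TruSeq small RNA libraries, per the labels' protocols. The deposited values are RPM, per the file headers of the HCT15 tables. The HCT29 headers name no unit, and their values, also whole multiples of 1 read, were read as RPM. The submitters' processing notes name hg19, while the sources used here do not name the aligner and annotation. Reads were recovered from the RPM steps (100% of nonzero values whole within 0.1 read) and used for the 10-read filter, intervals and count-based alternatives.

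Ratios were log2(RPM + 1), HCT29 over HCT15, called at 2-fold. Folds are RPM ratios with exact conditional binomial (Clopper-Pearson) 95% intervals. Against 0 reads a fold is an approximate lower bound set at 3 reads. The line term was fitted with limma 3.58.1 (R 4.3.3) with a mean-variance trend over 4 libraries, on miRNAs that reached 10 reads in 2 or more libraries. A check on simulated counts looked at the sign of known line effects. Those effects were the same in both cultures, so the check does not bear on the p-values of these data. Alternatives used edgeR 4.0.16 and DESeq2 1.42.0. Seeds, hairpins and sequences came from RefSeq (GRCh38.p14) and hosts on the same strand from GENCODE.

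The miRNAs named are the 12 highest and 12 lowest ratios of at least 100 RPM, the 6 most abundant per sphere library, up to 4 per list (35 lists), up to 8 each way by limma p, the 8 most opposite between the pairs and the 6 hairpins with the largest arm difference. Members and lists were chosen with earlier results of these data known. Named after their values were seen are miR-23b-3p, miR-92b-3p, miR-181d-5p, miR-103a-3p, miR-429, miR-520a-3p, miR-127-3p, miR-409-3p, miR-410-3p, the hairpin of miR-151a and those in the closing section.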

Additional observations from a re-analysis of the deposited data

Results flagged for a closer look

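Of the 26 miRNAs whose line ratio was at least 2-fold in opposite directions in sphere and in parental exosomes, 21 reached 100 RPM in a sphere library, and the 8 of these furthest apart between the pairs are given here. These counts are by RPM and were not repeated under the other scales. By TMM scaling and DESeq2 size factors the sphere ratio of miR-200a-3p, 1 of the 8, fell inside 2-fold. With 1 library per line and culture, the difference between the pairs was not tested. The log2 line ratio (HCT29 over HCT15) in spheres minus that in parental cultures was -8.96 for miR-29b-3p, -7.76 for miR-199a-3p and -7.76 for miR-199b-3p, which hold identical values. It was -5.56 for miR-107, -5.50 for miR-200a-3p, -5.09 for miR-27a-3p and -4.99 for miR-141-3p. It was 5.81 for miR-375, the only one of the 8 that was higher in HCT29 spheres and lower in HCT29 parental exosomes. miR-29b-3p rests on few reads, with 0 RPM in HCT29 spheres, 132 RPM in HCT15 spheres, 181 RPM in HCT29 parental and 47.7 RPM in HCT15 parental exosomes (20 and 7 reads in the parental pair).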

How the results depend on the processing

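No paired analysis was possible because the labels carry no replicate numbers, with 1 library per line and culture. The limma fit does hold a culture term, so it compares the lines within each culture. Higher and lower counts in the sphere pair stayed within 1.5 times of 82 and 182 under both other pseudocounts, all 3 other scales, thinning, the interval rule and single counting of identical entries. They were 172 and 509 with no read filter, 42 and 96 at 50 reads in either library, and 43 and 74 at 10 reads in both, a filter chosen after seeing the data. The first 2 filters change how many miRNAs are counted. Repeats in the parental pair (26 higher, 57 lower) stayed within 1.5 times in all 5 alternatives, at 20 to 36 and 44 to 53. The other scales move ratios by close to a common amount of less than 2-fold, so a ratio past 2-fold could not change sign. Of the 130 named miRNAs, 19 left the 2-fold rule by TMM scaling and 4 came to meet it. With DESeq2 size factors the counts were 14 and 2, and without miR-10a-5p in the totals 6 and 4. Limma's 8 higher and 20 lower calls moved most. They were 2 and 3 with a pseudocount of 0.1 RPM, 5 and 5 by edgeR, 3 and 4 with the filter at 1 library, and 2 and 5 with a term for line only. The lower calls were 11 by voom and 8 by DESeq2. Leaving out 1 library allows no culture term, so those fits drop that term too and stand beside the 2 and 5 of the fit with a term for line only. They gave 0 to 3 higher and 6 to 15 lower calls: 2 and 10 without HCT29 sphere, 0 and 6 without HCT15 sphere, 3 and 15 without HCT29 parental, and 0 and 6 without HCT15 parental. The cause was not tested. Without miR-345, chosen after seeing the data, the DLK1-DIO3 sum was 222-fold lower, against 21.4-fold with it. Depth limits the parental pair most, where the floor of 3 reads is 27.1 RPM in HCT29 and 20.5 RPM in HCT15.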

Other observations

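A pair of X-linked miRNAs from 1 intron, chosen after their values were seen, were detected only on the HCT29 side in both cultures. miR-767-5p (chrX:152393421-152393529, minus strand, in an intron of GABRA3) had 96.1 RPM in HCT29 spheres and 0 RPM in HCT15 spheres, at least 14.8-fold higher, and 81.3 RPM in HCT29 parental and 0 RPM in HCT15 parental exosomes. miR-105-5p, whose hairpins lie in the same intron region on both sides of miR-767, had 30.1 RPM in HCT29 spheres and 0 RPM in HCT15 spheres, at least 4.63-fold higher, and 45.2 RPM in HCT29 parental and 0 RPM in HCT15 parental exosomes. The parental values rest on 9 and 5 reads, and a count of 0 there allows 20.5 RPM.

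The counts by abundance class, set by the higher of the sphere libraries, were as follows. Of the 154 miRNAs under 100 RPM in both sphere libraries, 43 were at least 2-fold higher and 85 lower in HCT29. Of the 102 that reached 100 but not 1000 RPM, 20 were higher and 58 lower, and of the 69 at 1000 RPM or more, 19 were higher and 39 lower. The median log2 ratio was -1.51, -1.70 and -1.25 in the 3 classes.

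Lists not described above gave the following counts, beside 25.2% higher and 56.0% lower among all 325. The clusters around miR-17-92, which MYC drives, had 3 of 13 measured members higher, 7 lower and 3 within 2-fold in HCT29 spheres. Of the 13, 5 had passed the filter through HCT15 alone. The miR-130, miR-301 and miR-454 family had 1 of 7 higher and 6 lower, or 1 higher and 2 lower by TMM scaling. miR-210-3p, which low oxygen induces, had 136 RPM in HCT29 spheres and 666 RPM in HCT15 spheres, 4.91-fold lower (3.79 to 6.44). The miR-30 family had 1 of 8 higher, 3 lower and 4 within, and the miR-378 family 0 higher, 2 lower and 1 within. By TMM scaling the miR-378 family had 0 lower and its sum turned round (log2 -0.48 by RPM, 0.33 by TMM). The miR-183, miR-96 and miR-182 cluster had 1 higher, 2 lower and 1 within, and the miR-191 and miR-425 cluster 1 higher and 3 within. The secretory epithelium list had 1 higher and 2 lower, with 2 members that passed the filter through HCT15 alone. The colorectal tumour list had 1 higher and 4 lower, with 1 such member. Entries that overlap other abundant RNAs had 4 of 11 higher and 5 lower. Blood markers had 1 higher and 1 within, endothelial markers 1 higher, neural markers 1 lower and 1 within and squamous markers 1 within, while muscle, liver and the X-linked miR-506 to miR-514 and miR-888 lists had 0 measured.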
